A study of Caenorhabditis elegans with 5 samples.

Results

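The vitellogenin genes of *Caenorhabditis elegans*, *vit-1* to *vit-6*, encode the precursors of the worm's yolk proteins. Every probe set whose annotated gene symbols are vitellogenin names was taken, which gave 10 of the 22548 probe sets on the array. They stand for 5 of the 6 genes, namely *vit-1*, *vit-2*, *vit-4*, *vit-5* and *vit-6*, and *vit-3*, which RefSeq places next to *vit-4* among protein-coding genes, was not analysed here. Of the 10 probe sets, 8 carry a single vitellogenin symbol and 2 carry *vit-4* and *vit-5* together, so the value of such a shared probe set belongs to neither gene alone. The names of 6 probe sets end in _x_at and that of 1 ends in _s_at, the platform's marks for probes that may also bind other transcripts, and 3 end in plain _at. The 6 _x_at probe sets are all those of *vit-4*, *vit-5* or both, and they are therefore not independent measurements of those genes.

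Whole worms of the wild-type strain Bristol N2, of mixed stages, were grown for 10 days at 20 °C in the liquid medium CeMM, and total RNA of 100000 worms per group was hybridised to 1 Affymetrix array per group. The groups were space flight, clinorotation (slow rotation that keeps changing the direction of gravity), hypergravity, and 2 ground controls at 1 G, one kept at the operation site of the flight and one at Tsukuba. The labels give the hypergravity group as 3 G in one place and as 10 G in another, so no value is used for it. No treatment has a replicate array, and the only replicate spread is that between the ground controls, given below as a log2 SD (n = 2).

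Yolk proteins are made in the intestine of adult hermaphrodites, secreted into the body cavity as lipid-carrying particles and taken up by growing oocytes through the receptor RME-2. In these worms *vit-1* and *vit-2* encode closely related large yolk polypeptides, *vit-3*, *vit-4* and *vit-5* encode a second closely related group, and the product of *vit-6* is cleaved into a pair of smaller yolk proteins. Larvae and males make little or no vitellogenin mRNA. In whole worms of mixed stages, fewer adult hermaphrodites or intestinal cells in a sample and less mRNA per cell cannot be told apart.

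All values below are quantile-scaled signals, in arbitrary units, of arrays that had not been brought to one level as deposited (trimmed means from 139 to 217). Signals under the 40th percentile of all values, 24.9, were set to that floor. All 10 vitellogenin probe sets were among the 13371 probe sets whose mean lay above it. Those of the 13371 with a single gene symbol stood for 10076 genes. Signals of different probe sets cannot be set against each other, because probes bind with different strength, so each probe set is compared only with itself across arrays. Where signals of a marker list are summed, the sum is compared with itself across arrays and is weighted to the brightest probe sets.

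The vitellogenin genes read higher in hypergravity than in both ground controls on all 10 probe sets, and hypergravity was the highest of the 5 arrays for each of them. Of all 13371 probe sets, 35.1% were above both controls in hypergravity, 30.7% were below both and 22.6% were highest there. The median difference of the 10 probe sets from the control mean was 0.79 on the log2 scale, a 1.73-fold higher signal, against 0.023 for all probe sets. At least 2-fold above the higher control were 2 of the 10, a position that 0.322% of all probe sets held. In limma, with Benjamini-Hochberg adjustment over all 13371 probe sets, 0 of the 10 passed an adjusted p under 0.05, and so did 0% of all probe sets. At an unadjusted p under 0.05, limma had 316 probe sets in either direction (2.36%) and 122 higher in hypergravity (0.912%). Among the 122 were 7 of the 10 vitellogenin probe sets. The 7 are both *vit-6* probe sets and, apart from 172673_x_at, the _x_at probe sets of *vit-4*, *vit-5* or both. Those _x_at probe sets are not independent, so the 7 do not count as separate measurements. In limma, *vit-1* (unadjusted p 0.10), *vit-2* (0.12) and 172673_x_at (0.11) were not among them. The smallest adjusted p of any probe set was 0.955, which was also the adjusted p of each vitellogenin probe set. The spread in limma comes from the difference between the 2 controls, with 1 residual degree of freedom per probe set. It is drawn towards a trend with intensity over all 13371 probe sets. A probe set's SE and p therefore do not rest on its own controls alone. The same spread is taken to hold for the unreplicated treated arrays too.

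**Figure D1:**
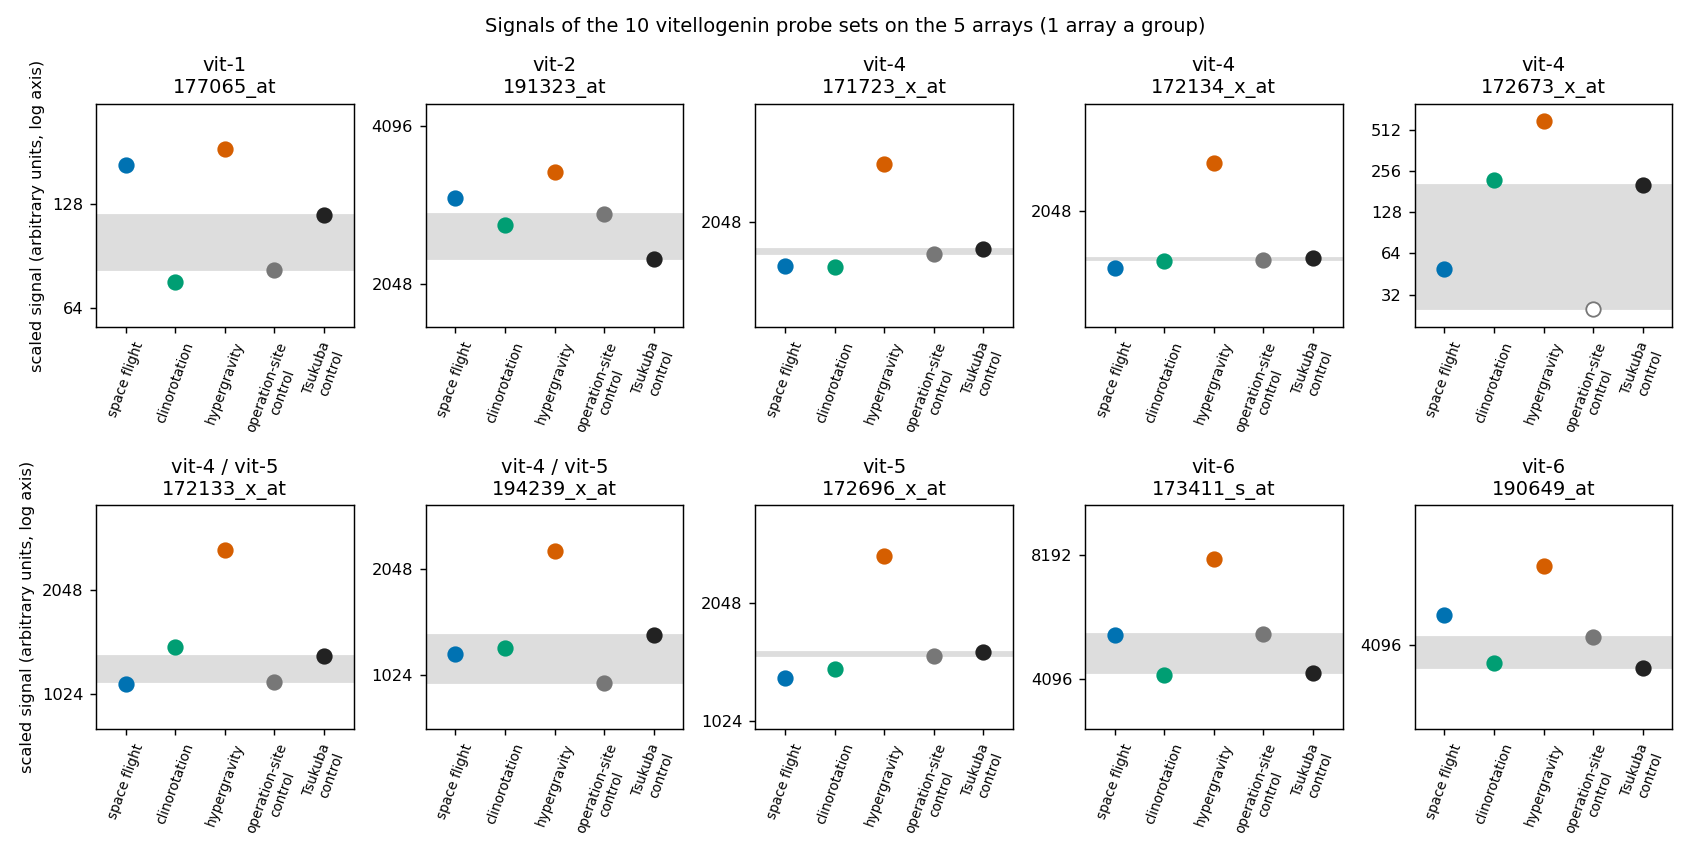
Scaled signal (arbitrary units, log axis, a different range in each panel) of each vitellogenin probe set on the space flight, clinorotation, hypergravity, operation-site control and Tsukuba control arrays, 1 point per array. The grey band spans the 2 controls and the open point is a signal set to the floor of 24.9. The hypergravity point is the highest in all 10 panels, and the other treated points lie in or close to the band in most of them.

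*vit-4* and *vit-5* encode closely related large yolk polypeptides, and 3 of their probe sets had the closest ground controls of the family. The *vit-4* probe set 172134_x_at read 1527 in space flight, 1587 in clinorotation and 2614 in hypergravity, against 1593 in the operation-site control and 1613 in the Tsukuba control. The other 4 arrays lay close together, and hypergravity alone stood away from them. It was 1.62-fold above the higher control, and limma gave a log2 difference from the control mean of 0.71 (SE 0.16, unadjusted p 0.016), with a control SD of 0.013. A distance that large above both controls in hypergravity was reached by 1.69% of all probe sets.

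A further *vit-4* probe set, 171723_x_at, read 1653 in space flight, 1643 in clinorotation and 2730.0 in hypergravity, against 1753 in the operation-site control and 1797 in the Tsukuba control. Hypergravity was again the only array well outside the controls, at 1.52-fold the higher one, while space flight and clinorotation lay slightly under the lower one. The log2 difference from the control mean in hypergravity was 0.62 (limma SE 0.16, unadjusted p 0.022). The centred profiles of these 2 *vit-4* probe sets differed by a root mean square of 0.041 log2 units over the 5 arrays, the closest pair among the 10.

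The *vit-5* probe set 172696_x_at read 1321 in space flight, 1392 in clinorotation and 2699 in hypergravity, against 1503 in the operation-site control and 1541 in the Tsukuba control. It had the same order as 171723_x_at at the top, with hypergravity far above and the Tsukuba control next. Hypergravity was 1.75-fold above the higher control, with a log2 difference of 0.83 from the control mean (limma SE 0.16, unadjusted p 0.010, control SD 0.026). Space flight was 0.19 and clinorotation 0.11 log2 units below the lower control.

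The shared *vit-4* and *vit-5* probe sets were both higher in hypergravity as well. Probe set 172133_x_at read 1094 in space flight, 1404 in clinorotation and 2663 in hypergravity, against 1106 in the operation-site control and 1323 in the Tsukuba control. Hypergravity was 2.01-fold above the higher control, with a log2 difference of 1.14 from the control mean (limma SE 0.21, unadjusted p 0.0077). This is 1 of the 2 probe sets past 2-fold, and it is only just past it. Probe set 194239_x_at read 1174 in space flight, 1221 in clinorotation and 2299 in hypergravity, against 969.9 in the operation-site control and 1328 in the Tsukuba control. Here the other treated arrays fell between the controls, and hypergravity was 1.73-fold above the higher control with a log2 difference of 1.02 (limma SE 0.27, unadjusted p 0.025).

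The third *vit-4* probe set was higher in hypergravity too, but its controls disagreed. Probe set 172673_x_at read 49.1 in space flight, 219.8 in clinorotation and 589.7 in hypergravity, against the floor of 24.9 in the operation-site control (21.2 as deposited) and 203 in the Tsukuba control. The controls had an SD of 2.14, and space flight lay between them. Hypergravity was at least 23.7-fold above the operation-site control and 2.91-fold above the Tsukuba control. Its difference from the control mean, 3.05 (limma SE 1.43, unadjusted p 0.11), rests on the control at the floor. This is the other probe set past 2-fold, and no vitellogenin probe set was at least 2-fold outside both controls among those without an _x_at or _s_at ending (0 of 3).

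*vit-6*, whose product is the precursor of the smaller yolk proteins, was measured by 2 probe sets. Probe set 173411_s_at read 5242 in space flight, 4181 in clinorotation and 8025 in hypergravity, against 5271 in the operation-site control and 4250.2 in the Tsukuba control. Space flight read almost as the operation-site control did, clinorotation almost as the Tsukuba control did, and hypergravity was 1.52-fold above the higher control. Its log2 difference from the control mean was 0.76 (limma SE 0.19, unadjusted p 0.021, control SD 0.22). Probe set 190649_at read 4752 in space flight, 3762 in clinorotation and 6039 in hypergravity, against 4274 in the operation-site control and 3668 in the Tsukuba control. Hypergravity was 1.41-fold above the higher control, with a log2 difference of 0.61 from the control mean (limma SE 0.17, unadjusted p 0.027). Both *vit-6* probe sets thus had the same array at the top and the operation-site control above the Tsukuba control, and their centred profiles differed by a root mean square of 0.10.

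*vit-1* and *vit-2* each have 1 probe set, neither marked as cross-hybridising, and showed the smallest gaps between hypergravity and the next array. The *vit-2* probe set 191323_at read 2982 in space flight, 2651 in clinorotation and 3344 in hypergravity, against 2784 in the operation-site control and 2290.0 in the Tsukuba control. Hypergravity was 1.20-fold above the higher control, with a log2 difference of 0.41 from the control mean (limma SE 0.19, unadjusted p 0.12). Of all probe sets, 13.8% were at least as far above both controls in hypergravity. The distance between hypergravity and space flight, 0.16 log2 units, was smaller than the 0.28 between the controls.

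The *vit-1* probe set 177065_at read 166 in space flight, 76.2 in clinorotation and 184 in hypergravity, against 82.7 in the operation-site control and 119 in the Tsukuba control. Space flight and hypergravity lay together above the controls, and clinorotation lay below both. Hypergravity was 1.55-fold and space flight 1.39-fold above the higher control. The log2 differences from the control mean were 0.89 in hypergravity (limma SE 0.41, unadjusted p 0.10) and 0.74 in space flight (limma SE 0.41, unadjusted p 0.15), with a control SD of 0.37.

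In space flight the vitellogenin probe sets did not share a direction. Of the 10, 3 were above both controls, where 36.2% of all probe sets lay, and 4 were below both, where 29.1% lay. The 3 above were those of *vit-1* and *vit-2* and 190649_at of *vit-6*, which are the 3 probe sets with a plain _at ending. The 4 below were 171723_x_at and 172134_x_at of *vit-4*, 172696_x_at of *vit-5* and the shared 172133_x_at. The median difference from the control mean was -0.011 on the log2 scale, against 0.031 for all probe sets. With median scaling it was 0.048 against 0.13, and without scaling 0.54 against 0.62, so over the 10 probe sets it lay slightly below the median of all probe sets in each case although its own sign turned. With 1 probe set a gene it was above, at 0.15 against 0.032 for all genes. Over the 3 plain _at probe sets it was 0.26. No vitellogenin probe set was 2-fold above both controls, as 0.142% of all probe sets were. In limma, 0 of 13371 probe sets (0%) had an adjusted p under 0.05, the smallest being 0.977, and 184 had an unadjusted p under 0.05 (1.38%), none of them a vitellogenin probe set.

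In clinorotation too the probe sets lay on both sides of the controls. Above both were 2 of the 10 probe sets, against 29.4% of all, and below both were 5, against 26.2%. The 2 above were 172673_x_at and 172133_x_at, by 0.12 and 0.086 log2 units. The largest distance below the lower control was that of *vit-1*, -0.12 log2 units. The median difference from the control mean was -0.044, against 0.015 for all probe sets. With median scaling it was 0.021 against 0.11, and without scaling 0.22 against 0.30, so here too it lay below the median of all probe sets while its own sign turned. No vitellogenin probe set was 2-fold above both controls, as 0.0897% of all probe sets were. In limma, 0 of 13371 probe sets (0%) had an adjusted p under 0.05, the smallest being 1, and 43 had an unadjusted p under 0.05 (0.322%), again with no vitellogenin probe set.

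**Figure D2:**
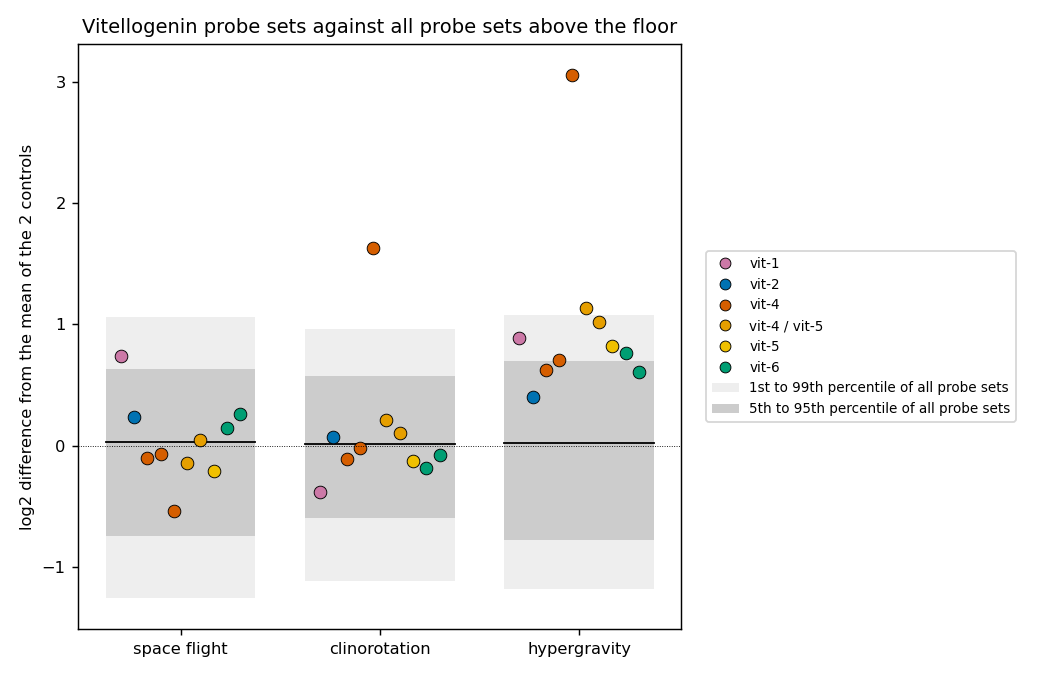
Log2 difference of each vitellogenin probe set from the mean of the 2 ground controls in space flight, clinorotation and hypergravity, 1 point per probe set, over grey bars for the central percentiles and a black line for the median of all 13371 probe sets above the floor. In hypergravity all 10 points are above 0, from 0.41 to 3.05. In space flight and clinorotation they lie on both sides of it.

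The ground controls differed from each other without a common direction over the family. The operation-site control read higher than the Tsukuba control for 3 of the 10 probe sets, those of *vit-2* and *vit-6*, where 50.3% of all probe sets did, and the median difference was -0.036. One probe set, 172673_x_at, was at least 2-fold lower there, as 4.43% of all probe sets were. Placed in order of level, hypergravity came first for all 10 probe sets and was followed by the Tsukuba control for 4, by space flight for 3, by clinorotation for 2 and by the operation-site control for 1. The step from hypergravity to the next array was larger than the gap between the controls for 7 of the 10. The share of all probe sets with such a step is not given here. The 7 are both *vit-6* probe sets and, apart from 172673_x_at, the _x_at probe sets of *vit-4*, *vit-5* or both, which are not independent. The exceptions were *vit-1*, *vit-2* and 172673_x_at, for which neighbours in the order did not differ by more than the gap between the controls at any step.

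Set against each of the other treated arrays, hypergravity was also higher for every vitellogenin probe set. The fold over clinorotation ran from 1.26 for *vit-2* to 2.68 for 172673_x_at of *vit-4*, with 2 probe sets at least 2-fold higher (0.434% of all probe sets). The fold over space flight ran from 1.11 for *vit-1* to 12.0 for 172673_x_at, with 3 at least 2-fold higher (4.65% of all). Each of these comparisons sets 1 array against 1 array and has no test. They rest on the scaling, since the trimmed mean as deposited was 192 for hypergravity, 177 for clinorotation and 217 for space flight.

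How far above the controls the family stood in hypergravity depended on the scaling, but its position relative to all probe sets did so less. All 10 probe sets were above both controls under quantile, trimmed-mean and median scaling, without scaling, and with a lower floor or none. Without scaling the median of all probe sets itself shifted by 0.41 in hypergravity, and the family's median difference was 1.22. There 8 of the 10 were at least 2-fold above both controls, as 2.5% of all probe sets were. Less the median of all probe sets, the family's median lay between 0.75 and 0.81 in these 6 settings. With trimmed-mean scaling 1 probe set was 2-fold above both controls, as 0.24% of all probe sets were. Against the operation-site control alone 4 were, a count given without its share over all probe sets. Over the 3 probe sets with a plain _at ending, the median in hypergravity was 0.61, and over 1 probe set a gene it was 0.76, with 0 past 2-fold in each case.

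**Figure D3:**
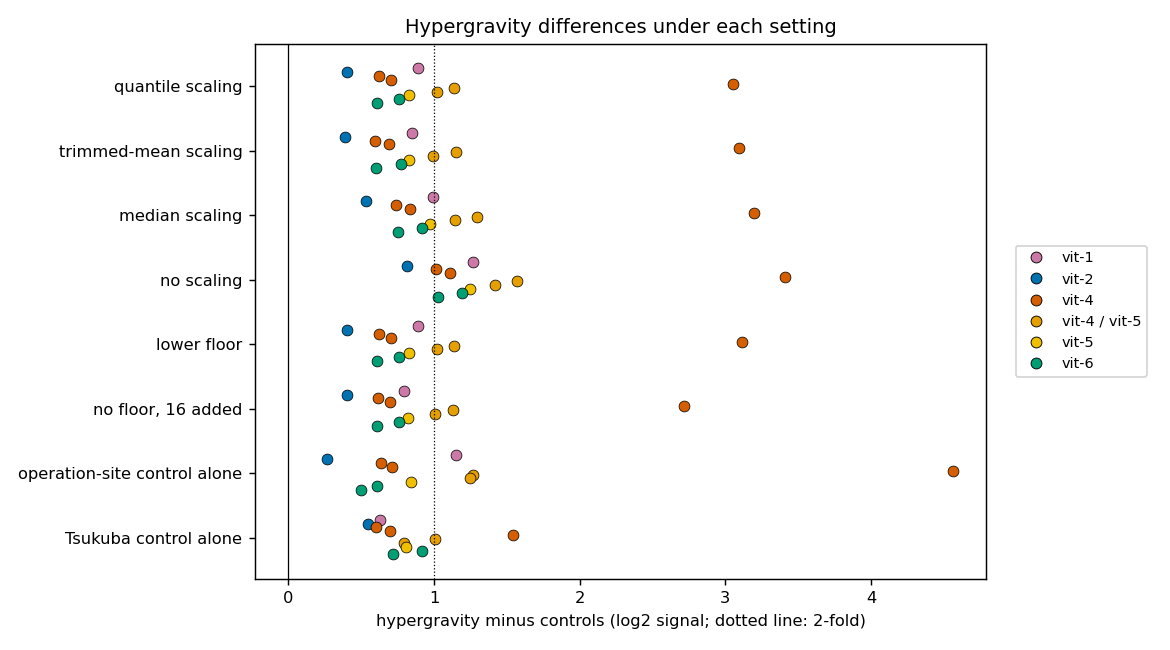
Log2 difference of the hypergravity array from the controls for each vitellogenin probe set (x axis), with 1 row per way of scaling, flooring or choosing controls. The dotted line marks 2-fold, and all points lie right of 0 in all 8 rows, with 172673_x_at of *vit-4* farthest right in each.

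Regulators of vitellogenin transcription were examined next, as a list of 17 genes of which 12 had a probe set above the floor. Above both controls were 2 of these 12 in space flight, 5 in clinorotation and 2 in hypergravity, and below both were 6, 2 and 7. The background was the 10070 genes whose brightest probe set lay above the floor, each read by that probe set. Of these genes, 36.3% were above both controls in space flight, 28.4% in clinorotation and 33.2% in hypergravity. Below both were 29.5%, 27.7% and 32.7%, in the same order. The list's median difference from the control mean was -0.29 in space flight, 0.11 in clinorotation and -0.19 in hypergravity, against 0.032, 0.0057 and 0.0013 for all genes. None of them was 2-fold outside both controls, and 0 of 12 passed limma's adjusted p of 0.05 in any condition in either direction.

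*elt-2*, the GATA factor that drives much of intestinal transcription, read 119.8 in space flight, 133 in clinorotation and 113 in hypergravity, against 219 in the operation-site control and 105 in the Tsukuba control. On this probe set all treated arrays lay between the controls, which were more than 2-fold apart. Its second probe set read 108 in space flight, 70.4 in clinorotation and 95.7 in hypergravity, against 81.3 in the operation-site control and 91.4 in the Tsukuba control. There space flight and hypergravity lay above both controls, by 0.24 and 0.065 log2 units, and clinorotation below both, so the *elt-2* probe sets disagree. *unc-62*, a homeodomain factor that activates vitellogenin genes in adults, read 136 in space flight, 141.5 in clinorotation and 134 in hypergravity, against 105 in the operation-site control and 109 in the Tsukuba control. It was above both controls in each treatment, by 0.32, 0.37 and 0.29 log2 units, in the order given. Its second probe set read 52.2 in space flight, 46.6 in clinorotation and 57.2 in hypergravity, against 41.9 in the operation-site control and 47.9 in the Tsukuba control, so there clinorotation lay between the controls.

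*pqm-1*, a zinc-finger factor of the intestine, read 676 in space flight, 1453 in clinorotation and 1155 in hypergravity, against 825 in the operation-site control and 1420.3 in the Tsukuba control. Hypergravity lay between controls that differed by 0.78 log2 units. *lin-29*, a factor of the larval-to-adult switch, read 62.8 in space flight, 44.1 in clinorotation and 48.1 in hypergravity, against 85 in the operation-site control and 54.7 in the Tsukuba control. It was 0.19 log2 units below the lower control in hypergravity. *ceh-60*, a homeodomain partner of *unc-62*, stayed at or near the floor, and *mab-3*, which represses vitellogenin genes in males, was at the floor on all 5 arrays, so neither gives a difference.

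Genes of yolk assembly and uptake were all measured above the floor, 15 of 15. Above both controls were 8 in space flight, 7 in clinorotation and 9 in hypergravity, where 36.3%, 28.4% and 33.2% of all genes lay. Below both were 4, 3 and 3, where 29.5%, 27.7% and 32.7% of all genes lay. Their median difference from the control mean was 0.12 in space flight, 0.044 in clinorotation and 0.12 in hypergravity, against 0.032, 0.0057 and 0.0013 for all genes, and 0 of 15 passed limma's adjusted p or lay 2-fold outside both controls. *rme-2*, the oocyte's yolk receptor, read 1470.5 in space flight, 1234 in clinorotation and 1481 in hypergravity, against 1178 in the operation-site control and 1075 in the Tsukuba control. It was above both controls in all 3 treatments, by 0.33 log2 units in hypergravity. *dsc-4*, the worm homologue of the microsomal triglyceride transfer protein that loads lipid onto such particles, read 359 in space flight, 212 in clinorotation and 189.8 in hypergravity, against 349.8 in the operation-site control and 244 in the Tsukuba control. In hypergravity, where the vitellogenin probe sets were highest, *dsc-4* was 0.37 log2 units below the lower control and lowest of the 5 arrays.

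**Figure D4:**
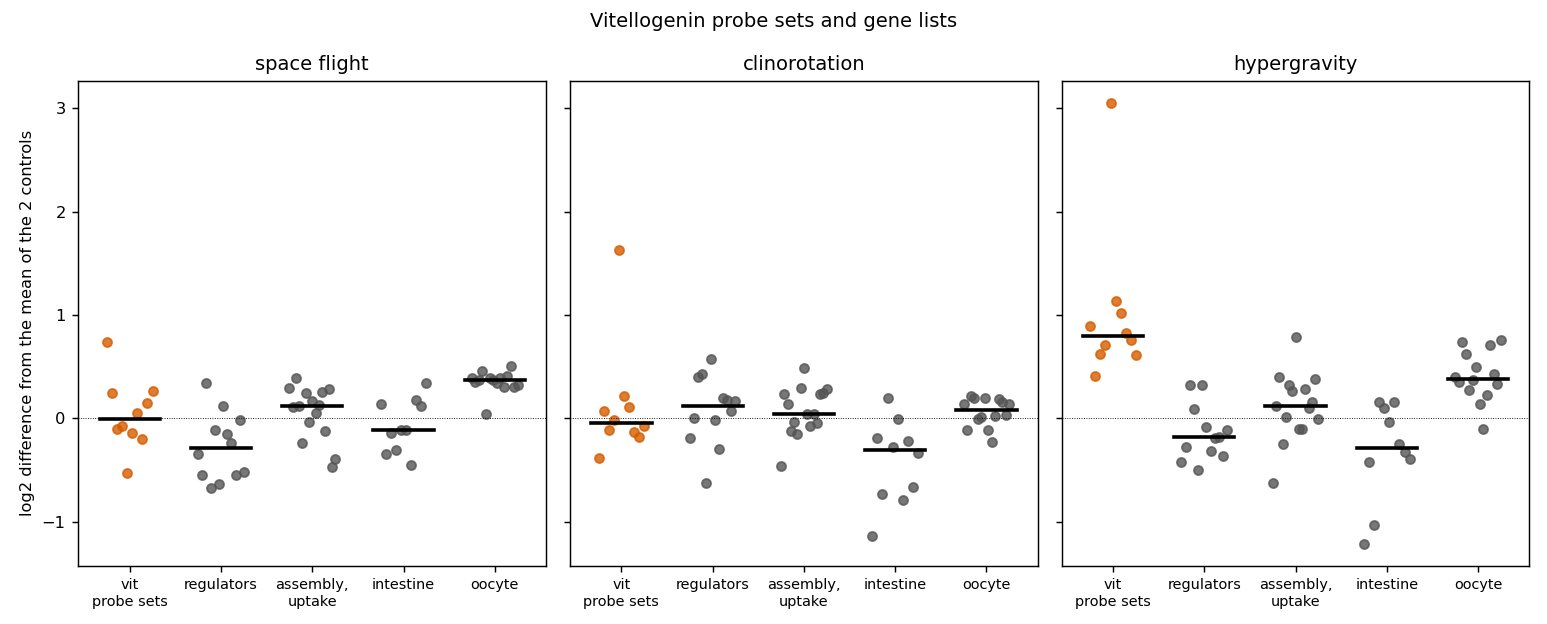
Log2 difference from the mean of the 2 ground controls for the 10 vitellogenin probe sets and, by gene, for regulators (12), yolk assembly and uptake (15), intestine markers (10) and oocyte markers (14), with a black bar at each median. In hypergravity the vitellogenin median is 0.79, the oocyte median 0.38 and the intestine median -0.29. The intestine median is -0.31 in clinorotation and -0.11 in space flight.

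Markers of the tissues that make and take up yolk differed between arrays. Of 10 intestine markers, 1 was above and 5 were below both controls in hypergravity, where 33.2% and 32.7% of all genes lay, with a median of -0.29 and a range from -1.21 to 0.16. In clinorotation 0 were above and 7 below both, where 28.4% and 27.7% of all genes lay, with a median of -0.31. In space flight 2 were above and 4 below both, where 36.3% and 29.5% of all genes lay, with a median of -0.11. Their summed signal was 15511 in space flight, 14589 in clinorotation and 15312 in hypergravity, against 16611 in the operation-site control and 15903 in the Tsukuba control. That sum follows its brightest probe set, that of the protease gene *asp-1*, which gave 7058 units of it in hypergravity. The lowest of the 10 in hypergravity, named after their values were seen, were the gut esterase gene *ges-1* and the intestinal acid phosphatase gene *pho-1*. They lay 0.93 and 0.95 log2 units below the lower control in hypergravity, and 0.86 and 0.65 below it in clinorotation. The marker above both controls in hypergravity was the actin gene *act-5*, by 0.016. On that array *ifb-2* and *cpr-1*, between the controls, were each 0.16 above the control mean. Of 14 oocyte markers, 14 were above both controls in space flight, 6 in clinorotation and 12 in hypergravity, with medians of 0.37, 0.082 and 0.38, where 36.3%, 28.4% and 33.2% of all genes lay above both. Their summed signal was 26443 in space flight, 20612 in clinorotation and 25606 in hypergravity, against 22141 in the operation-site control and 19102 in the Tsukuba control. *oma-2* and *spn-4*, also named after their values were seen, lay 0.69 and 0.68 above both controls in hypergravity. *perm-2* and *perm-4* lay between the controls there, at 0.14 and -0.11 from the control mean. *elt-2* is also among the regulators and *rme-2* among the uptake genes. The part of oocyte and intestine content in the vitellogenin values was not tested.

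Sperm markers separated the arrays in another way. The summed signal of the 11 with a probe set was 18250.4 in space flight, 3657 in clinorotation and 5528 in hypergravity, against 17627 in the operation-site control and 4466 in the Tsukuba control, and *spe-9* was at the floor throughout. Nearly all of that sum came from *msp* probe sets, which all end in _x_at and so may not be independent. *spe-11* and *spe-41* read 64.4 or less on every array. The adult collagen gene *col-19* read 278 in space flight, 134 in clinorotation and 251 in hypergravity, against 332 in the operation-site control and 123 in the Tsukuba control. By sperm markers hypergravity therefore lay closer to the Tsukuba control, and against that control alone the vitellogenin median in hypergravity was 0.76, with all 10 probe sets higher. By *col-19* it lay between the controls. In hypergravity the 5 markers of body wall muscle ran from -0.40 to -0.012 from the control mean. The 4 markers of hypodermis went both ways there, from -1.46 for *rol-6*, which was over 2-fold below both controls, to 0.49 for *dpy-7*. The part of stage and tissue makeup in the vitellogenin values was not tested.

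The genes whose profile over the 5 arrays was most like the mean of the vitellogenin probe sets, by root mean square distance of centred log2 signals, were *cct-8* (0.042), *max-2* (0.069), *ints-8* (0.082), *Y119C1A.1* (0.095) and *C03D6.1* (0.099). *max-2*, a p21-activated kinase gene, read 348 in space flight, 418 in clinorotation and 692 in hypergravity, against 319 in the operation-site control and 421 in the Tsukuba control. *cct-8*, a chaperonin subunit gene, read 32.7 in space flight, 35.7 in clinorotation and 62.7 in hypergravity, against 27.4 in the operation-site control and 34.2 in the Tsukuba control. *max-2* was well above the floor, whereas none of the other 4 read above 63.8 on any array. The mean profile is pulled by 172673_x_at, which lay 1.31 from it, while the other 9 probe sets lay 0.033 to 0.39 from it.

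*vit-6* lay 0.26 from that mean and was therefore also matched alone. Nearest to it were *tfg-1* (0.049), *Y69H2.3* (0.052), *C34B2.9* (0.081), *B0001.8* (0.082) and *R04D3.4* (0.087). *Y69H2.3* read 1299 in space flight, 1057 in clinorotation and 1708 in hypergravity, against 1195 in the operation-site control and 1069 in the Tsukuba control. *tfg-1*, which acts in export from the endoplasmic reticulum, read 197 in space flight, 146 in clinorotation and 269 in hypergravity, against 185 in the operation-site control and 143 in the Tsukuba control. These likenesses rest on 5 arrays and describe only the shape across them.

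**Figure D5:**
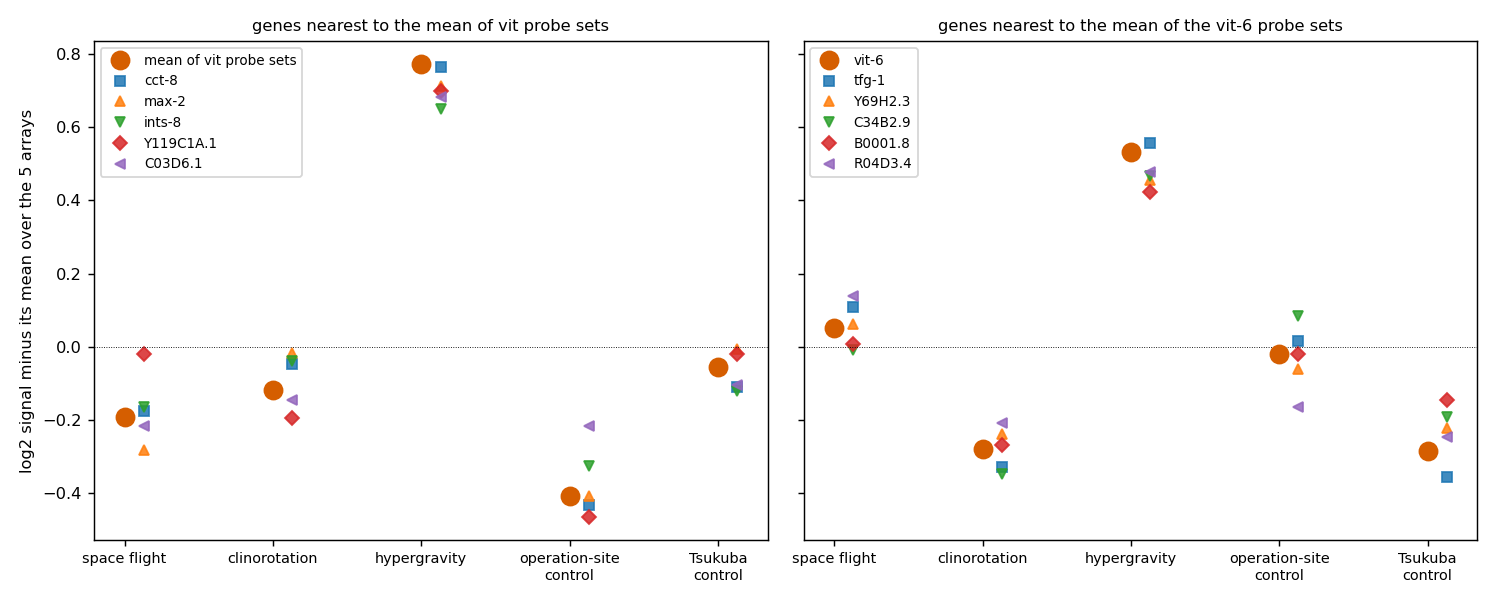
Centred log2 signal (each gene's mean over the 5 arrays set to 0) of the vitellogenin mean (left panel, large points) and of *vit-6* (right panel, large points) with the 5 nearest genes of each (small points) on the 5 arrays. All 10 genes peak in hypergravity, as the rule that chose them by likeness implies.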

How the data were processed

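The deposited values are intensities on a linear scale, 1 signal per probe set and array, from 0.1 to 13519.3, read from the values. How the authors summarised probe cells is not stated in what was used here. Per the labels' protocols, 15 µg of total RNA per sample was turned into biotinylated cRNA. Probe sets were named through GEO's platform annotation: 20766 carried 1 symbol, 887 several and 895 none.

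The arrays were quantile normalized on log2 signals and floored, and probe sets with a mean log2 signal above the floor were fitted with limma 3.58.1 in R 4.3.3 (lmFit, eBayes with an intensity trend, two-sided, Benjamini-Hochberg over 13371 probe sets), with the 2 controls as 1 group. The controls came from 2 sites, so p-values reflect no more than the spread of these 2 samples, pooled in part over probe sets, the sites' difference included. Being at least 2-fold outside both controls is a size rule with no test. The number of arrays limits the precision. The computations were tested on simulated data. A list gene was read by its brightest probe set.

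The members, lists and comparisons were chosen with earlier results of these data known. Named were all vitellogenin probe sets, *elt-2*, *unc-62*, *ceh-60*, *pqm-1*, *lin-29*, *mab-3*, *dsc-4*, *rme-2*, pathway genes past a threshold and the 5 nearest profiles. Scaling, floor, filter, probe sets per gene, the trend and each control were varied. A planned promoter motif search was not run, and no sequences are shown.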

Additional observations from a re-analysis of the deposited data

Results flagged for a closer look

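For 6 vitellogenin probe sets, 1 treated array lay above both ground controls and another lay below both, and these differences between treatments were not tested. The distances that follow are log2 units to the nearer control, positive above both and negative below both. *vit-1* was 0.48 in space flight, -0.12 in clinorotation and 0.63 in hypergravity. The *vit-4* probe set 171723_x_at was -0.085 in space flight, -0.093 in clinorotation and 0.60 in hypergravity. The *vit-4* probe set 172134_x_at was -0.062 in space flight, -0.0057 in clinorotation and 0.70 in hypergravity, so its clinorotation value is hardly outside the controls. The shared probe set 172133_x_at was -0.015 in space flight, 0.086 in clinorotation and 1.01 in hypergravity. The *vit-5* probe set 172696_x_at was -0.19 in space flight, -0.11 in clinorotation and 0.81 in hypergravity. The *vit-6* probe set 173411_s_at was -0.024 in clinorotation and 0.61 in hypergravity. In each of these the hypergravity distance was the larger.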

How the results depend on the processing

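The family's median in hypergravity stayed above 0 in every alternative run, at 0.95 with median scaling, 1.22 without scaling, 0.76 with 1 probe set a gene and 0.76 to 0.78 against a single control. With only the plain _at probe sets, an alternative chosen after seeing the data, it was 0.61. In hypergravity, 1 vitellogenin probe set was at least 2-fold outside both controls with trimmed-mean scaling and 8 were without scaling. Of all probe sets, 0.24% and 2.5% were that far above both, in the same order. The number was 0 with 1 probe set a gene and 0 with only plain _at probe sets. It was 2 to 4 against a single control, with 4 against the operation-site control. In space flight the number was 1 without scaling, a higher one, where 3.71% of all probe sets were that far above both controls. Against the operation-site control alone it was 1 there, *vit-1*, higher by 1.00. Against the Tsukuba control alone it was also 1, but this was 172673_x_at at -2.05, thus lower. In clinorotation it was 0 against the Tsukuba control and 1 against the operation-site control, 172673_x_at, at 3.14 over a control set to the floor. The counts against a single control are given without their share over all probe sets, so they are not read as unusual. The space flight median was -0.065 with trimmed-mean scaling, 0.048 with median scaling, 0.54 without scaling, 0.15 with 1 probe set a gene and -0.10 to 0.046 against a single control. The clinorotation median was -0.084, 0.021, 0.22 and -0.13 in the same order, and -0.082 to -0.024 against a single control. The operation-site control minus Tsukuba control median was -0.11 with trimmed-mean and -0.16 with median scaling.

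Single probe sets turned sign with median scaling for 172134_x_at in clinorotation (0.053), where the median of all probe sets was 0.11. Without scaling they turned in space flight for 171723_x_at (0.42), 172134_x_at (0.47), 172133_x_at (0.43) and 172696_x_at (0.36). In clinorotation they turned for 171723_x_at (0.18), 172134_x_at (0.25), 172696_x_at (0.19), 173411_s_at (0.11) and 190649_at (0.18). Without scaling the median of all probe sets was itself 0.62 in space flight and 0.30 in clinorotation, above each of these values. Without the filter on dim probe sets limma called 238 probe sets in space flight, 225 in clinorotation and 358 in hypergravity. Both controls sat at the floor for 225, 219 and 346 of these, and no vitellogenin probe set was called, the smallest adjusted p being 0.454 in hypergravity. With the control arrays left out singly no residual degree of freedom remains, so those are values with no test. Depth is unknown for arrays, and the 5 arrays and the floor limit what can be seen. No paired analysis was possible because each treatment has 1 array and the labels give the controls no replicate number.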
